A study of Mus musculus with 12 samples.

Results

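The genes described here encode enzymes that oxidize acetyl-CoA, ketone bodies and branched-chain amino acids in mitochondria, together with the transaminases and malate dehydrogenases that tie the cycle to the cytosol. The 35 genes were taken by name from a table of 22915 genes, 13184 of which reached a normalized count of 10 in at least 3 libraries and were tested. All 35 passed this filter. By role they comprise 12 genes of the tricarboxylic acid (TCA) cycle, 3 of the malate-aspartate shuttle, 6 of branched-chain transamination and the branched-chain ketoacid dehydrogenase (BCKDH), 4 of the leucine branch, 5 of the valine and isoleucine branches, 2 of propionyl-CoA carboxylase and 3 of ketone use. Cardiomyocytes were isolated from hearts of adult male C57/Bl6 mice aged 12 weeks and kept in normoxia for 24 h with PBS, murine LIF (mLIF), murine OSM (mOSM) or human-like OSM (hlOSM). mLIF signals through the LIF receptor (LIFR) and mOSM through the OSM receptor (OSMR). hlOSM is mouse OSM carrying the AB loop of the human protein and engages either receptor. The sample descriptions give 25 ng/mL for each cytokine, the methods of the study a slightly lower concentration. Each condition holds 3 libraries, 12 in all, and the sources do not state whether these came from separate animals, although the methods speak in passing of biological replicates. Should they share animals, the spread between libraries would be technical.

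The TCA cycle burns acetyl-CoA from fat, glucose, ketone bodies and amino acids to feed the respiratory chain, and the heart keeps its enzymes at high levels. Leucine, isoleucine and valine are transaminated and then committed to oxidation by BCKDH, which the kinase BCKDK switches off and the phosphatase PPM1K switches on. Leucine then yields acetyl-CoA and acetoacetate, whereas valine and isoleucine feed propionyl-CoA, which propionyl-CoA carboxylase passes towards succinyl-CoA. Ketone bodies enter through BDH1, OXCT1 and ACAT1. In the adult heart these programs are driven by factors such as PGC-1α, the estrogen-related receptors and KLF15.

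The values are normalized counts rounded to whole numbers by the authors, without division by gene length. They summed to between 2745748 and 2911891 per library, which is not the number of reads, so the depth behind a value is unknown. Replicate numbers left almost no trace in single genes. When the 4 conditions were averaged, libraries numbered 3 exceeded libraries numbered 1 on the log2 scale by a near constant amount from gene to gene. Its mean was 0.0415 with an SD of 0.0019 over 6626 genes with a mean of at least 100, and 0.0413 with an SD of 0.00115 over the 33 members above that mean. No step that would take gene-specific differences between replicate numbers out is named in the sources used here. A model that treats the libraries as independent then counts 8 residual degrees of freedom, where blocking on replicate number leaves 6, so that its p-values are too small. Counts are therefore also given with the block. Cardiomyocyte markers were abundant in every library, with Ttn between 21576 and 33150 and Myh6 between 2716 and 4060. Markers of fibroblasts, endothelial cells, leukocytes and mural cells were present too, none of them at 0. The fibroblast marker Pdgfra had a PBS mean of 613.3 and the cardiomyocyte marker Myl2 one of 493.0. Per kilobase of exon this order turned around, with 61.2 for Pdgfra and 252.8 for Myl2.

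Members were well expressed. Their mean over the 12 libraries ran from 81.9 for Bdh1 to 1519 for Ogdh, with a median of 408.9 against 100.8 over all tested genes, and 33 of the 35 lay above the latter. Per kilobase of exon, the PBS level was highest for Oxct1 at 394.5, followed by Idh2 at 355.4 and Ogdh at 301.0, and lowest for Auh at 16.8 and Bdh1 at 20.9. By this measure the enzyme that activates acetoacetate stood far above the dehydrogenase that precedes it. The length counts all annotated exons of a gene, whichever transcript is expressed. Of the exonic bases of Bdh1, 13.7% overlap Gm15743 on the other strand.

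Each cytokine was compared with PBS to ask which receptor arm goes with altered expression of this oxidative program. No member rose with any cytokine. With mOSM, 12 of the 35 fell (limma, adjusted p under 0.05), where 15.8% of all tested genes fell and 15.4% rose. With hlOSM, 16 fell, where 19.8% of all tested genes fell and 18.2% rose. With mLIF none fell, where 4.44% of all tested genes fell and 5.47% rose. An unadjusted limma p under 0.05 was met by 5 members, all of them below PBS. The share of all tested genes at that unadjusted p is not given here, so this count cannot be set against it. The replicate block left 9 members lowered with mOSM, beside 12.8% of all tested genes, and 13 with hlOSM, beside 16.5%. The falls were small. They reached a log2 fold change of −0.45 with mOSM and −0.42 with hlOSM, and no member fell by 1.5-fold or more.

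The median log2 fold change of the members was −0.07 for mLIF and −0.15 for each OSM form, while the median over all tested genes lay within 0.01 of 0 in each of these comparisons. Of the 35 genes, 29 lay below 0 under mLIF, 31 under mOSM and 32 under hlOSM. Over all tested genes the shares below 0 were 49.8%, 50.6% and 50.5%. The PBS mean was the highest of the 4 condition means in 27 members and the lowest in none. In 24 members the mLIF mean lay between PBS and both OSM means. These orders of means were not counted over all tested genes. All 3 mOSM libraries lay below all 3 PBS libraries in 12 members, beside 19.9% of all tested genes. With hlOSM this held for 20 members, beside 24.3%, and with mLIF for 6, beside 15.6%. All comparisons with PBS share the same control libraries.

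**Figure D1:**
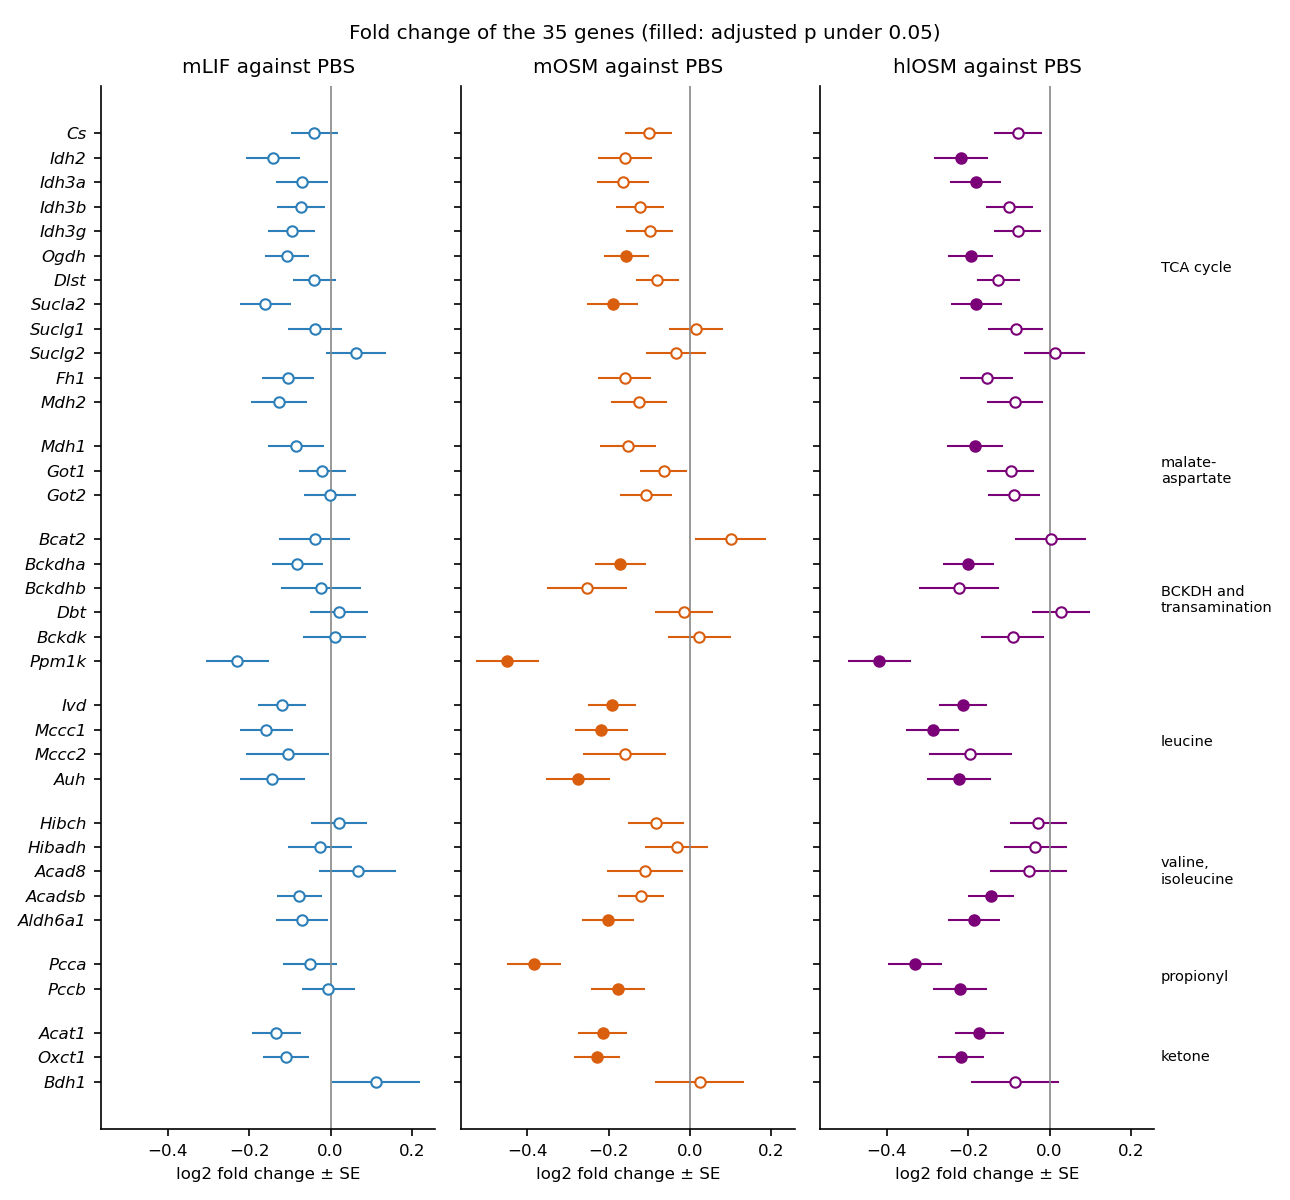
Log2 fold change against PBS (horizontal axis, with the limma SE) of the 35 genes, ordered by role, for mLIF, mOSM and hlOSM; filled circles passed an adjusted p of 0.05. No circle is filled for mLIF, 12 are for mOSM and 16 for hlOSM, each on the left of 0, with Ppm1k and Pcca farthest out.

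The counts depended on single libraries. Without PBS replicate 3 the members lowered numbered 4 with mOSM and 8 with hlOSM, and without mOSM replicate 1 they numbered 6 with mOSM. With hlOSM they numbered 10 without PBS replicate 1, 10 without hlOSM replicate 1 and 9 without hlOSM replicate 2. Without PBS replicate 3, 97 other pathway and marker genes lost 13 of 48 calls with mOSM and 17 of 55 with hlOSM. The shares of all tested genes lowered in fits without a library are not given here. This dependence can thus not be called particular to the members. Ppm1k, Pcca and Oxct1 fell with mOSM in all 12 fits that left out a library and with the block. With hlOSM the same held for Ogdh, Ppm1k, Mccc1, Pcca, Pccb and Oxct1.

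Both OSM forms lowered 12 members, Acat1, Aldh6a1, Auh, Bckdha, Ivd, Mccc1, Ogdh, Oxct1, Pcca, Pccb, Ppm1k and Sucla2. Another 4, Acadsb, Idh2, Idh3a and Mdh1, passed with hlOSM alone, although none of them differed between hlOSM and mOSM. The remaining 19 passed in no comparison with PBS. With the block, 8 genes were lowered by both OSM forms. These were Acat1, Aldh6a1, Ivd, Mccc1, Oxct1, Pcca, Ppm1k and Sucla2. In neither fit was the share of all tested genes lowered by both forms counted. Both forms were compared with the same PBS libraries, so calls shared by both are not particular to the members.

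Of the 12 genes of the TCA cycle, 2 fell with mOSM and 4 with hlOSM, where 15.8% and 19.8% of all tested genes fell. Citrate synthase (Cs), which condenses acetyl-CoA with oxaloacetate, had normalized counts of 1090, 1017 and 1095 with PBS, 1082, 1035 and 997 under mLIF, 942, 1036 and 1006 under mOSM and 967, 973 and 1098 under hlOSM. The conditions overlapped, and the log2 fold change was −0.10 with mOSM (SE 0.0582, adjusted p = 0.195) and −0.08 with hlOSM (SE 0.0582, adjusted p = 0.312). Ogdh, the E1 subunit of 2-oxoglutarate dehydrogenase, measured 1637, 1577 and 1711 with PBS, 1587, 1513 and 1472 under mLIF, 1403, 1535 and 1481 under mOSM and 1399, 1375 and 1534 under hlOSM. Every library of both OSM forms lay below every PBS library. Ogdh fell by 10.3% with mOSM (adjusted p = 0.0321, with the block 0.0507) and by 12.6% with hlOSM (adjusted p = 0.00735).

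Sucla2 encodes the ATP-forming β subunit of succinyl-CoA ligase. Its counts were 780, 741 and 786 with PBS, 689, 695 and 680 under mLIF, 615, 661 and 753 under mOSM and 707, 678 and 652 under hlOSM. The mLIF and hlOSM libraries lay below all of PBS, whereas mOSM replicate 3 overlapped them. Sucla2 fell by 12.3% with mOSM (adjusted p = 0.0237) and by 11.7% with hlOSM (adjusted p = 0.027), and the log2 fold change with mLIF was −0.16 (SE 0.0624, adjusted p = 0.106). Suclg2, the GTP-forming counterpart, lay at −0.03 with mOSM (adjusted p = 0.765) and 0.01 with hlOSM (adjusted p = 0.911). The log2 ratio of Sucla2 to Suclg2 within a library ran from 1.53 to 1.68 with PBS, from 1.33 to 1.39 under mLIF, from 1.28 to 1.58 under mOSM and from 1.33 to 1.43 under hlOSM, so that only mOSM overlapped PBS.

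Idh2, the mitochondrial NADP-dependent isocitrate dehydrogenase, measured 923, 868 and 968 with PBS, 895, 837 and 772 under mLIF, 747, 823 and 905 under mOSM and 779, 793 and 797 under hlOSM. The hlOSM libraries lay close together and below PBS, while mLIF and mOSM overlapped it. The fall was 14.0% with hlOSM (adjusted p = 0.0122), and the log2 fold change with mOSM was −0.16 (SE 0.066, adjusted p = 0.0705). Idh3a, the catalytic subunit of the NAD-dependent enzyme, fell by 11.8% with hlOSM (adjusted p = 0.0277) and had a log2 fold change of −0.16 with mOSM (adjusted p = 0.0536), while its partners Idh3b and Idh3g did not pass with either. Dlst, Suclg1, Fh1 and Mdh2 did not pass in any comparison with PBS, with log2 fold changes between −0.16 and 0.01.

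In the malate-aspartate shuttle, which moves reducing equivalents into mitochondria, 1 of 3 genes fell with hlOSM and none with mOSM. The shares of all tested genes that fell were 19.8% and 15.8%. Cytosolic Mdh1 fell by 11.9% with hlOSM (adjusted p = 0.0398, with the block 0.0615). Got1 and Got2, the cytosolic and mitochondrial aspartate aminotransferases, lay between −0.11 and 0.00 against PBS in all comparisons and did not pass. The log2 ratios of mitochondrial to cytosolic enzyme overlapped between conditions for Mdh2 to Mdh1 and for Got2 to Got1.

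The phosphatase and the kinase that switch BCKDH had PBS levels of 51.5 (Ppm1k) and 52.9 (Bckdk) per kilobase of exon. Ppm1k, the mitochondrial phosphatase that activates BCKDH (mm10, chromosome 6, 57506502 to 57535468, minus strand), had normalized counts of 315, 276 and 340 with PBS, 267, 269 and 255 under mLIF, 232, 219 and 228 under mOSM and 211, 250 and 234 under hlOSM. The conditions stepped down from PBS over mLIF to the OSM forms without overlap between PBS and any cytokine. Ppm1k fell by 26.7% with mOSM (log2 −0.45, SE 0.0775, adjusted p = 0.000109) and fell by 25.2% with hlOSM (log2 −0.42, adjusted p = 0.000187), the largest falls among the members. With mLIF its log2 fold change was −0.23 (adjusted p = 0.0619).

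Bckdk, the opposing kinase (chromosome 7, 127904082 to 127910221, plus strand), measured 192, 188 and 206 with PBS, 205, 190 and 195 under mLIF, 197, 213 and 186 under mOSM and 173, 176 and 202 under hlOSM. All conditions overlapped, with log2 fold changes of 0.01, 0.02 and −0.09 (SE 0.0782, adjusted p of at least 0.384). The log2 ratio of Bckdk to Ppm1k within a library was −0.71, −0.55 and −0.72 with PBS, −0.38, −0.50 and −0.39 under mLIF, −0.23, −0.04 and −0.29 under mOSM and −0.28, −0.50 and −0.21 under hlOSM. Every cytokine library thus lay above every PBS library in the ratio of kinase to phosphatase mRNA, which does not depend on the scaling between libraries. This says nothing of the phosphorylation of BCKDH, which was not measured.

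**Figure D2:**
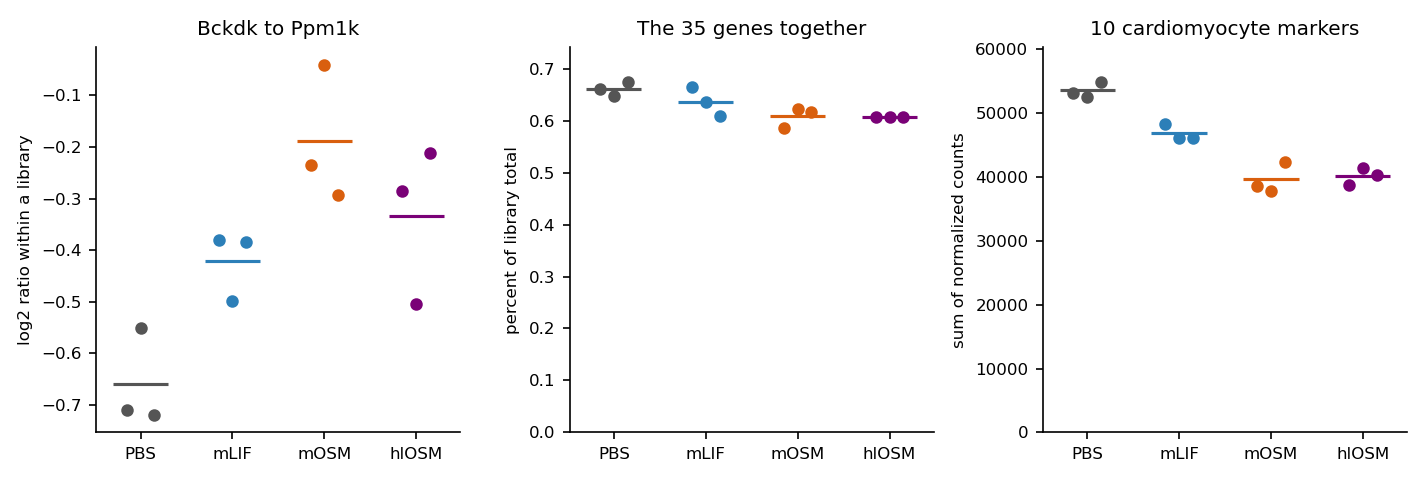
Points are libraries and lines condition means for the log2 ratio of Bckdk to Ppm1k (left), the percent of the library total held by the 35 genes (middle) and the summed normalized count of 10 cardiomyocyte markers (right, axis from 0 in the middle and right panels). The ratio is lowest with PBS, from −0.72 to −0.55. The marker sum, most of which is Ttn, falls from PBS to mLIF and further to the OSM forms.

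Of the dehydrogenase itself, Bckdha, the E1α subunit, fell by 11.2% with mOSM (adjusted p = 0.0404, with the block 0.0851) and by 12.9% with hlOSM (adjusted p = 0.015). Since 61.7% of its exonic bases overlap B3gnt8 on the other strand and the strand setting of the counting is not given in the sources used here, its value is uncertain. Bckdhb, the E1β subunit, had log2 fold changes of −0.25 with mOSM (SE 0.0985, adjusted p = 0.055) and −0.22 with hlOSM (adjusted p = 0.0796). Dbt, the E2 core, lay at −0.02 and 0.03. Bcat2, the mitochondrial transaminase, measured 140, 131 and 139 with PBS, 140, 129 and 130 under mLIF, 130, 160 and 151 under mOSM and 138, 129 and 144 under hlOSM. Its conditions overlapped, with log2 fold changes of 0.10 with mOSM (SE 0.087, adjusted p = 0.418) and 0.00 with hlOSM (adjusted p = 0.984), and 15.9% of its exonic bases overlap 0610005C13Rik on the other strand.

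The leucine branch had 3 of 4 genes lowered by each OSM form. Over all tested genes, 15.8% fell with mOSM and 19.8% with hlOSM. Ivd, which oxidizes isovaleryl-CoA, measured 640, 641 and 667 with PBS, 632, 590 and 573 under mLIF, 571, 552 and 583 under mOSM and 518, 565 and 601 under hlOSM. Every cytokine library lay below every PBS library, and Ivd fell by 12.4% with mOSM (adjusted p = 0.0171) and by 13.7% with hlOSM (adjusted p = 0.00719). Mccc1, the biotin-carrying subunit of methylcrotonyl-CoA carboxylase, measured 424, 417 and 438 with PBS, 382, 394 and 370 under mLIF, 372, 333 and 397 under mOSM and 334, 363 and 351 under hlOSM. PBS again lay above all 9 cytokine libraries. Mccc1 fell by 14.0% with mOSM (adjusted p = 0.0132) and by 18.1% with hlOSM (adjusted p = 0.00134), and its log2 fold change with mLIF was −0.16 (adjusted p = 0.126).

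Auh, the methylglutaconyl-CoA hydratase of the same branch, measured 158, 161 and 165 with PBS, 144, 146 and 148 under mLIF, 143, 125 and 132 under mOSM and 129, 141 and 145 under hlOSM. It fell by 17.4% with mOSM (adjusted p = 0.0104) and by 14.3% with hlOSM (adjusted p = 0.0309, with the block 0.0766), again with PBS above every other library. Mccc2, the partner of Mccc1, had log2 fold changes of −0.16 with mOSM and −0.19 with hlOSM but a larger SE of 0.102, and did not pass (adjusted p of at least 0.138).

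In the valine and isoleucine branches 1 of 5 genes fell with mOSM and 2 with hlOSM, beside 15.8% and 19.8% of all tested genes. Aldh6a1, the methylmalonate semialdehyde dehydrogenase of valine breakdown, fell by 13.0% with mOSM (adjusted p = 0.0202) and by 12.1% with hlOSM (adjusted p = 0.0261), and 18.6% of its exonic bases overlap Bbof1 on the other strand. Acadsb, the dehydrogenase of the isoleucine branch, fell by 9.49% with hlOSM (adjusted p = 0.0474, with the block 0.0801). Hibch, Hibadh and Acad8 of the valine branch lay between −0.11 and 0.07 in the comparisons with PBS and did not pass.

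Propionyl-CoA carboxylase, where valine, isoleucine, methionine and odd-chain fatty acids meet, fell in both subunits. Pcca, the α subunit that carries biotin (chromosome 14, 122534324 to 122891100, plus strand), measured 292, 320 and 305 with PBS, 305, 284 and 296 under mLIF, 237, 219 and 247 under mOSM and 234, 245 and 249 under hlOSM. The PBS and mLIF libraries intermingled, and all 6 OSM libraries lay below them. Pcca fell by 23.3% with mOSM (log2 −0.38, SE 0.0664, adjusted p = 0.000114) and fell by 20.5% with hlOSM (log2 −0.33, adjusted p = 0.000424). With mLIF its log2 fold change was −0.05 (adjusted p = 0.673).

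Pccb, the β subunit (chromosome 9, 100982032 to 101034898, minus strand), measured 324, 339 and 334 with PBS, 345, 333 and 316 under mLIF, 283, 277 and 323 under mOSM and 282, 281 and 293 under hlOSM. mOSM replicate 3 lay just below the lowest PBS library, and the other OSM libraries were farther down. Pccb fell by 11.6% with mOSM (adjusted p = 0.0445, with the block 0.087) and by 14.1% with hlOSM (adjusted p = 0.0118). The call with mOSM was lost in 9 of the 12 fits that left out a library.

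**Figure D3:**
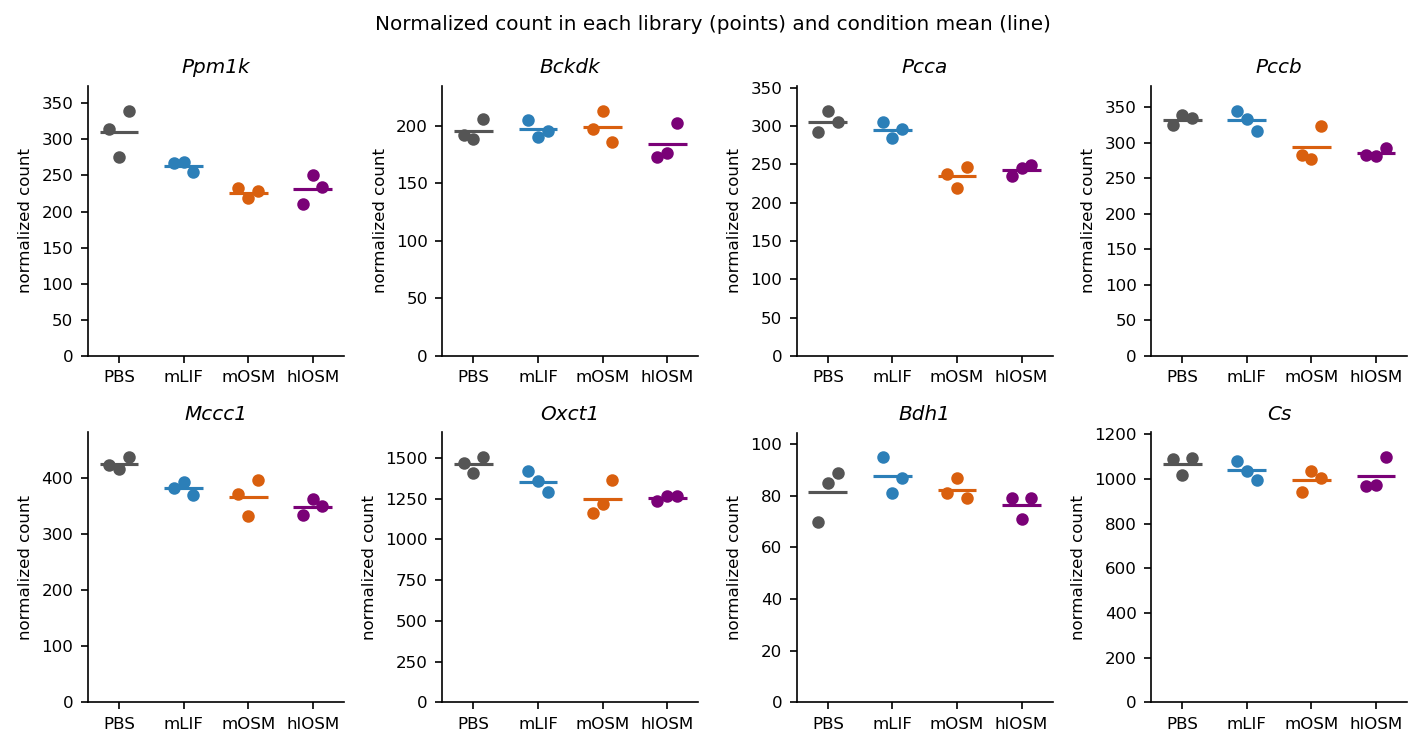
Normalized count (vertical axis from 0) in each library (points) and condition mean (line) of 8 members. Ppm1k falls in steps, Pcca is lower only with mOSM and hlOSM, with 219 to 249 against 284 to 320 in PBS and mLIF, and Bckdk, Bdh1 and Cs overlap between conditions.

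Stretches before the start sites of the members with the largest falls, Ppm1k and Pcca, of the partner subunit Pccb, and of Ivd are given from the RefSeq promoter windows (GRCm38.p6), which run from 250 bases before to 50 bases after a start. They are written 5′ to 3′ on the strand of the gene and cut so that they hold no annotated exon. Capitals mark a match to TTCNNNGAA, the spacing of a STAT site, or to the NRF1 motif GCATGCGC on either strand.
Ppm1k, chr6:57535488-57535737, minus strand: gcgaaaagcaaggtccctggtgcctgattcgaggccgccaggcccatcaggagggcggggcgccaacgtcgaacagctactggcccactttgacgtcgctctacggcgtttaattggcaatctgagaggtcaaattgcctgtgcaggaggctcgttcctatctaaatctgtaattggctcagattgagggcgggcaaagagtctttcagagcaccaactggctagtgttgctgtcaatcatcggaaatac
Pcca, chr14:122534078-122534323, plus strand: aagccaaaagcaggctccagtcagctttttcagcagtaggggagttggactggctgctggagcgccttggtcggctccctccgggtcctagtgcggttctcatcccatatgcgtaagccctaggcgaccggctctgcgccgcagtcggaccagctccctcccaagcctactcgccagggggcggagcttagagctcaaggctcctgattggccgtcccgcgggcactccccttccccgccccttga
Pccb, chr9:101034899-101035134, minus strand: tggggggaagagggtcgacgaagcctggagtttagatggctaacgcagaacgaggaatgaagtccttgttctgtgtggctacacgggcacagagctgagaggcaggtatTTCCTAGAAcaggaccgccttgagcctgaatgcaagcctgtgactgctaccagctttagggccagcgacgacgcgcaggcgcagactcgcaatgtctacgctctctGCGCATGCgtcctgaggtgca
Ivd, chr2:118861744-118861953, plus strand: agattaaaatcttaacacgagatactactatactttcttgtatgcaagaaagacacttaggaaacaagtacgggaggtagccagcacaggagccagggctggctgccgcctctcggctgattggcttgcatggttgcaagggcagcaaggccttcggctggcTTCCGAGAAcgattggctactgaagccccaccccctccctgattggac
The capitals in Pccb begin 141 and 35 bases before its start site, and those in Ivd begin 88 bases before it. No motif searched matched in the stretches of Ppm1k and Pcca. Of the members with a window, Pccb and Ivd alone held TTCNNNGAA, so the stretches shown are not a sample of the members.

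Windows were found for 32 of the 35 members, all but Idh3a, Dbt and Acat1, and were searched on both strands by letters. TTCNNNGAA was held by 2 members, Pccb and Ivd (6.25%), and by 9.55% of all 27025 genes with a window. Its stricter form TTCCNGGAA, matches of which are also counted under TTCNNNGAA, was held by no member and by 1.35% of all genes. The extended estrogen-related receptor element TCAAGGTCA was held by no member and by 0.466% of all genes. The E-box CACGTG was held by Ogdh and Mccc2 (6.25%, all genes 8.09%), GCATGCGC by Ogdh and Pccb (6.25%, all genes 3.05%), and the ETS motif CCGGAAG by Auh, Dlst, Idh3b and Idh3g (12.5%, all genes 9.93%). These are matches of letters in a short window, not sites.

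Ketone use had 2 of 3 genes lowered by each OSM form, beside 15.8% of all tested genes with mOSM and 19.8% with hlOSM. Oxct1, the CoA transferase that commits acetoacetate to oxidation (chromosome 15, 4026383 to 4155344, plus strand), measured 1466, 1410 and 1505 with PBS, 1417, 1355 and 1289 under mLIF, 1162, 1219 and 1362 under mOSM and 1236, 1264 and 1267 under hlOSM. All OSM libraries lay below PBS, and mLIF overlapped PBS and mOSM. Oxct1 fell by 14.7% with mOSM (log2 −0.23, SE 0.0565, adjusted p = 0.00334) and by 14.0% with hlOSM (log2 −0.22, adjusted p = 0.00419), and 12.6% of its exonic bases overlap BC037032 on the other strand.

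Acat1, the mitochondrial thiolase that splits acetoacetyl-CoA and also serves isoleucine, measured 648, 619 and 705 with PBS, 620, 593 and 583 under mLIF, 524, 591 and 584 under mOSM and 594, 569 and 584 under hlOSM. The OSM libraries lay below PBS without overlap. Acat1 fell by 13.8% with mOSM (adjusted p = 0.00876) and by 11.3% with hlOSM (adjusted p = 0.0274). Bdh1, the β-hydroxybutyrate dehydrogenase, measured 70, 85 and 89 with PBS, 95, 81 and 87 under mLIF, 81, 87 and 79 under mOSM and 79, 71 and 79 under hlOSM. Its conditions overlapped, and its log2 fold changes were 0.11, 0.02 and −0.08 with an SE of 0.109. The 95% interval of Bdh1 with hlOSM, −0.31 to 0.14, includes the fold change of Oxct1.

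Together the 35 genes held 0.661%, 0.647% and 0.674% of the library total with PBS, 0.664%, 0.637% and 0.609% under mLIF, 0.585%, 0.623% and 0.617% under mOSM and 0.606%, 0.607% and 0.607% under hlOSM. The OSM libraries lay below PBS, and mLIF spanned both. The branched-chain and propionate members held 0.189% to 0.196% with PBS, 0.181% to 0.191% under mLIF, 0.173% to 0.175% under mOSM and 0.170% to 0.176% under hlOSM, and the TCA cycle members 0.324% to 0.340%, 0.303% to 0.335%, 0.294% to 0.320% and 0.307% to 0.311% in the same order. In either group the OSM libraries lay below PBS. Cardiomyocyte markers moved with this. Of 10 such markers, 6 fell with mLIF (4 with the block) and 8 with each OSM form, all but Atp2a2 and Myl2, and their summed count ran from 52576 to 54846 with PBS, 46049 to 48292 under mLIF, 37865 to 42392 under mOSM and 38680 to 41318 under hlOSM. Ttn alone made up most of this sum, with means of 32920 with PBS, 28730 under mLIF, 22910 under mOSM and 23560 under hlOSM. The median log2 fold change of the 10 markers was −0.21 for mLIF, −0.28 for mOSM and −0.31 for hlOSM, farther from 0 than the medians of the members. With libraries rescaled to equal quantiles, which sets genes at a fixed top rank such as Ttn to 0, the markers that fell numbered 2 for mLIF, 4 for mOSM and 6 for hlOSM, while Atp2a2 rose under hlOSM. In such bulk samples fewer cardiomyocytes and less of a transcript per cell cannot be told apart.

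Endothelial markers summed to 1100 to 1158 with PBS, 1089 to 1141 under mLIF, 1333 to 1537 under mOSM and 1341 to 1439 under hlOSM, and 4 of 6 rose with each OSM form (3 for hlOSM with the block), while Pecam1 fell with mLIF. Of 7 fibroblast markers, 3 fell and 1 rose with mOSM and 5 fell and 2 rose with hlOSM (1 with the block), with sums of 1878 to 2141 with PBS, 1823 to 1833 under mLIF, 1674 to 1835 under mOSM and 1588 to 1651 under hlOSM. Leukocyte markers summed to 303 to 326 with PBS, 284 to 316 under mLIF, 345 to 382 under mOSM and 320 to 390 under hlOSM. Of 6 markers Cd68 alone rose, with each cytokine, and Lyz2 fell with hlOSM. Itgam fell with mOSM, though not with the block. Its counts of 8, 12 and 26 with PBS and 11, 4 and 4 under mOSM overlapped and lay near the filter. Of the exonic bases of Itgam, 68.7% overlap Gm49368 on the same strand. Smooth muscle and pericyte markers summed to 846 to 1046 with PBS, 802 to 850 under mLIF, 623 to 684 under mOSM and 578 to 598 under hlOSM, and 4 of 6 fell with mOSM and 5 with hlOSM. The part of these shifts in the falls of the members was not tested.

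The cytokines were also compared with each other. Against mLIF, Pcca fell with mOSM (log2 −0.33, SE 0.0664, adjusted p = 0.00137), the only member to do so, where 5.76% of all tested genes fell and 6.05% rose. With hlOSM, Pcca (log2 −0.28, adjusted p = 0.00473) and Pccb (log2 −0.21, adjusted p = 0.028, with the block 0.0639) were lower than with mLIF, where 9.22% of all tested genes fell and 7.42% rose. No member rose against mLIF. The call of Pccb was lost without mLIF replicate 1 or 2 and without hlOSM replicate 1 or 2. Ppm1k lay at −0.22 (adjusted p = 0.0714) and −0.19 (adjusted p = 0.104) in these comparisons. Without PBS replicate 3 Ppm1k joined Pcca in the comparison of mOSM with mLIF, which gives 2 members, and without mOSM replicate 3 Pccb and Oxct1 did, which gives 3. Among the members, propionyl-CoA carboxylase was thus the only step past the threshold between an OSM form and mLIF in this fit.

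Between hlOSM and mOSM, which differ in that hlOSM also engages LIFR, no member passed in limma and none had an unadjusted p under 0.05, where 0.106% of all tested genes fell. The shares of all tested genes that rose or had such an unadjusted p are not given here. The differences of the members ran from −0.11 for Bckdk to 0.06 for Acad8. For Ppm1k the 95% interval of the difference was −0.13 to 0.19 and for Pcca −0.09 to 0.19 on the log2 scale, so that differences smaller than this are not excluded. No member passed the test of whether hlOSM minus mOSM differed from mLIF minus PBS. Ppm1k alone had an unadjusted p under 0.05 there (log2 0.26, SE 0.11, adjusted p = 0.363). Over all 4 conditions, 10 of the 35 members differed by limma's F test, a smaller share than the 34.2% of all tested genes that did. With the block 5 members differed, beside 26.1% of all tested genes. Those 5 were Ppm1k, Mccc1, Pcca, Pccb and Oxct1. The F test gave 5 members without PBS replicate 1 or PBS replicate 3, and 6 without mLIF replicate 2 or hlOSM replicate 2.

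Neighbouring genes of the same pathways were taken from lists written with earlier results of these data known. Beside the counts of these lists stand the shares of all tested genes. With mOSM 15.4% rose and 15.8% fell, with hlOSM 18.2% and 19.8%, and with mLIF 5.47% and 4.44%. Among 15 further branched-chain and propionate genes, 4 rose and 2 fell with mOSM, 4 rose and 4 fell with hlOSM, and 2 rose with mLIF. With the block, 3 rose and 2 fell with mOSM, 4 rose and 3 fell with hlOSM, and 1 rose with mLIF. The genes named from this list were chosen after their values were seen. Bcat1, the cytosolic transaminase, measured 48, 38 and 48 with PBS, 43, 44 and 53 under mLIF, 82, 99 and 92 under mOSM and 101, 100 and 81 under hlOSM. It rose with mOSM (log2 1.01, SE 0.131, adjusted p = 2.92e-06) and hlOSM (log2 1.06, adjusted p = 1.23e-06), whereas its mitochondrial counterpart Bcat2 did not pass. Slc3a2 and Slc7a5, which form the carrier LAT1 that brings leucine into cells, rose by 0.38 (adjusted p = 6.83e-05) and 0.31 (adjusted p = 0.036, with the block 0.0592) with mOSM and by 0.40 (adjusted p = 3.66e-05) and 0.51 (adjusted p = 0.000841) with hlOSM on the log2 scale.

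Mmut, the methylmalonyl-CoA mutase downstream of propionyl-CoA carboxylase, measured 330, 342 and 381 with PBS, 339, 324 and 314 under mLIF, 293, 291 and 301 under mOSM and 290, 292 and 297 under hlOSM. It fell with mOSM (log2 −0.25, adjusted p = 0.00463) and hlOSM (log2 −0.26, adjusted p = 0.00279), with all OSM libraries below PBS. Mcee, the epimerase between them, fell with hlOSM (log2 −0.38, adjusted p = 0.00508) and lay at −0.31 with mLIF (adjusted p = 0.0535) and −0.22 with mOSM (adjusted p = 0.102). Mmachc, which processes cobalamin, the cofactor of the mutase, rose with mLIF (log2 0.43, adjusted p = 0.00446), mOSM (log2 0.33, adjusted p = 0.00776) and hlOSM (log2 0.47, adjusted p = 0.000291).

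Of 9 further TCA cycle and succinate dehydrogenase genes, 1 rose with mOSM and 1 rose and 1 fell with hlOSM. The gene that rose was Aco1, the cytosolic aconitase (log2 0.29, adjusted p = 0.0319, with the block 0.0513, and 0.38, adjusted p = 0.00474), and the gene that fell was Ogdhl (log2 −0.23, adjusted p = 0.0417, with the block 0.0634). Of 17 genes of pyruvate entry and anaplerosis, 1 rose and 7 fell with mOSM and 1 rose and 8 fell with hlOSM. With the block 5 of these fell with mOSM and 6 with hlOSM. Pdk4, a kinase that closes pyruvate dehydrogenase, rose with mOSM (log2 0.24, adjusted p = 0.0122) and hlOSM (log2 0.23, adjusted p = 0.0147). Pdk2 fell with mOSM (log2 −0.18, adjusted p = 0.0496, with the block 0.0843) and hlOSM (log2 −0.18, adjusted p = 0.0379, with the block 0.0651), and Pdk1 and Pdk3 did not pass. Without PBS replicate 3 the calls of Pdk4 and the call of Slc25a11 with each OSM form were lost, as were those of Pdk2. All 3 carriers of the malate-aspartate shuttle fell with hlOSM, 1 of them with the block, and 2 fell with mOSM in either fit.

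Of 8 other ketone body genes tested, 1 rose with each OSM form and 1 fell with hlOSM. The gene that rose, Slc16a3, the monocarboxylate carrier MCT4, had normalized counts of 6, 6 and 8 with PBS, 4, 7 and 6 under mLIF, 45, 34 and 29 under mOSM and 32, 23 and 26 under hlOSM. All PBS and mLIF libraries lay below the filter of 10, which the gene passed only through the OSM libraries where it is high, so its values are given as a description and its call counts for little. Slc16a7, the carrier MCT2, fell with hlOSM (log2 −0.53, adjusted p = 0.0458, with the block 0.108). Slc16a1, the carrier MCT1, had log2 fold changes of 0.00, 0.06 and 0.08. Bdh2 did not reach the filter.

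**Figure D4:**
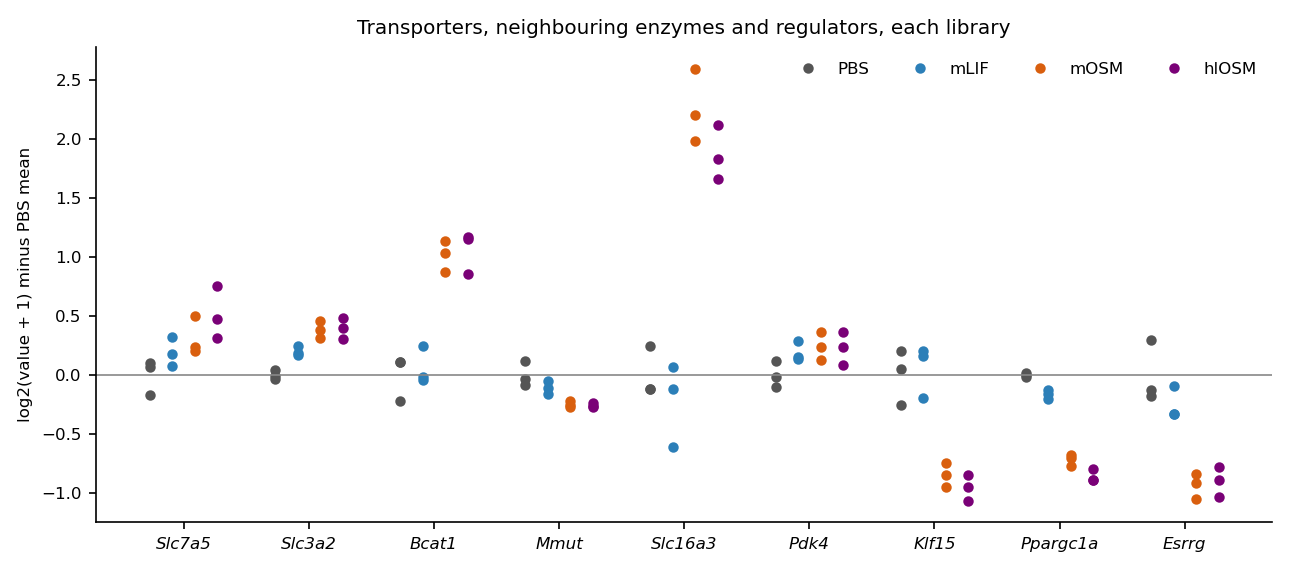
Log2(normalized count + 1) of each library minus the PBS mean of the gene (vertical axis) for carriers, neighbouring enzymes and regulators, colored by condition. With both OSM forms, Bcat1 and Slc16a3 lie above PBS and Mmut, Klf15, Ppargc1a and Esrrg below it, while the mLIF libraries stay nearer to PBS.

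Of 11 known regulators of these genes, 3 rose and 5 fell with mOSM, 2 rose and 3 fell with hlOSM, and 1 rose with mLIF. With the block 3 fell with mOSM, and the other counts were the same. Ppargc1a, the coactivator PGC-1α, measured 419, 422 and 413 with PBS, 363, 374 and 382 under mLIF, 257, 244 and 261 under mOSM and 225, 225 and 240 under hlOSM. It fell with mOSM (log2 −0.72, adjusted p = 5.26e-09) and hlOSM (log2 −0.86, adjusted p = 2.05e-10), and the libraries of the 4 conditions did not overlap. Its relative Ppargc1b went the other way with mOSM, where it rose from a PBS mean of 89.0 to 119.3, with overlapping libraries. That call was lost without PBS replicate 1 or 2, and Ppargc1b did not pass with hlOSM. Esrrg, an estrogen-related receptor, fell with mOSM (log2 −0.94, adjusted p = 1.47e-06) and hlOSM (log2 −0.90, adjusted p = 1.86e-06). Esrra and Ppara passed with mOSM only, though not with the block, and neither passed between hlOSM and mOSM. Esrra also lay below PBS in every hlOSM library, with 127 to 130 against 139 to 157. Esrrb passed with no cytokine. Klf15, a factor known to induce branched-chain catabolic genes, ran from 20 to 28 with PBS and from 11 to 14 with the OSM forms and fell with mOSM (log2 −0.85, adjusted p = 0.00328) and hlOSM (log2 −0.95, adjusted p = 0.000946). Hif1a rose with mOSM (log2 0.45, adjusted p = 1.75e-06) and hlOSM (log2 0.50, adjusted p = 2.99e-07). Myc rose with mLIF (log2 0.35, adjusted p = 0.0272), mOSM (log2 0.40, adjusted p = 0.00336) and hlOSM (log2 0.44, adjusted p = 0.00134). Whether these regulators bear on the members was not tested.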

How the data were processed

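RNA of cultured cardiomyocytes was sequenced from 12 libraries of 4 conditions, grouped by sample title. Per the labels and the methods of the study, reads were trimmed, aligned with STAR 2.7.7a to mm10 and counted with featureCounts 1.6.5, and reads on several genes or positions were left out. The authors deposited normalized counts rounded to whole numbers, a score rather than reads, and the normalization is not given in the sources used here. Count models were therefore not used. Tests used limma 3.58.1 in R 4.3.3 with its trend option. The response was log2(normalized count + 1), for 13184 genes that reached 10 in 3 or more libraries. All 4 conditions entered a single fit, two-sided, with Benjamini-Hochberg adjustment and a threshold of 0.05. limma was tested on simulated data. Percent changes are taken from the fitted log2 fold changes.

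Values in every library were given for Cs, Bcat2, Bckdk, Ppm1k, Oxct1, Bdh1 and Acat1, for up to 4 other members with the smallest adjusted p per cytokine, and for any other member past the threshold between 2 cytokines. The members and lists were chosen with earlier results of these data known. The alternatives were other pseudocounts (0.1 and 5), no filter, a filter at 50, trimmed-mean factors or quantiles, robust moderation, only the 6 libraries under comparison, the replicate number as block, an adjusted p under 0.01, a minimum of 1.5-fold, and each library left out in turn.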

Additional observations from a re-analysis of the deposited data

How the results depend on the processing

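No member reversed its direction with a call or rose under any alternative. Of 97 other pathway and marker genes compared with PBS, only Ttn, Ryr2 and Atp2a2 reversed, all with quantile rescaling, where Ttn came to 0.0 with each cytokine and Ryr2 to 0.0 with mLIF, since their ranks are fixed, and Atp2a2 to 0.16 with hlOSM. With a library left out, the other genes called lost between 0 and 11 of 12 calls with mLIF (11 without mLIF replicate 3), 0 to 13 of 48 with mOSM (13 without PBS replicate 3) and 0 to 17 of 55 with hlOSM (17 without PBS replicate 3). Members lowered with mLIF numbered 1 with the filter at 50 (Ppm1k) and 2 in the fit of 6 libraries (Ppm1k and Sucla2), and 0 to 1 with a library left out. Those lowered with mOSM numbered 12 in the fit reported, 4 at an adjusted p under 0.01, 0 at a minimum of 1.5-fold, and 4 (without PBS replicate 3) to 16 (without mOSM replicate 3) with a library left out. Those lowered with hlOSM numbered 16, 6 at 0.01, 0 at 1.5-fold, and 8 (without PBS replicate 3) to 18 (without mOSM replicate 3). Against mLIF, mOSM lowered 1 member, 3 after quantile rescaling, 2 in the fit of 6 libraries, 0 at 1.5-fold, and 1 to 3 with a library left out. hlOSM lowered 2, 1 with the block or at 0.01, 0 at 1.5-fold, and 1 to 2 with a library left out. The F test gave 10, 6 without a filter, 5 with the block, 4 at 0.01, and 5 to 14 with a library left out. The block aside, shares of all tested genes under these alternatives are not given here. The share held by the members with hlOSM was 0.611% of the genes that passed the filter, against 0.607% of all.

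With the replicate number as a block, 9 members fell with mOSM (Ogdh, Bckdha and Pccb were lost) and 13 with hlOSM (Mdh1, Auh and Acadsb were lost). Deviations from the condition means correlated between −0.406 and −0.151 for same-numbered libraries and between 0.00438 and 0.328 for others, and 0 of 12 libraries correlated best with their own number. Values from which a number effect has been taken out give negative same-number correlations by construction, so this check cannot show whether the numbers pair the samples. Since the depth of each library is unknown, no counting error could be set.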
